A study of Mus musculus with 24 samples.

Results

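The 10 genes described here, Foxp3, Ikzf2, Ctla4, Icos, Il1rl1, Gata3, Areg, Klrg1, Tnfrsf18 and Tnfrsf4, are used to identify regulatory T cells and group 2 innate lymphoid cells (ILC2). They were taken by symbol from the per-library count files, where all 10 were listed among 24421 gene symbols. Total RNA from adipose tissue of C57BL/6 mice aged 2 months had been sequenced in 24 libraries. The 6 groups of 4 libraries were WT males, WT females, and males and females of 2 mutants, STAT5B-Y665F and STAT5B-Y665H, in which the tyrosine numbered in these names, in the transcription factor STAT5B, is replaced by phenylalanine or histidine. Strain, age and tissue were shared by all groups, and the labels name no treatment. The labels do not name a fat depot, the zygosity of the mutation, the number of founder lines or whether each library came from 1 mouse, so p-values measure only the spread between these libraries. The comparisons ask whether transcripts of these 2 cell types differ between the genotypes and between the sexes.

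Regulatory T cells are CD4+ T cells that restrain other immune cells, and they depend on the transcription factor Foxp3. Interleukin-2 acts on them through STAT5, which supports Foxp3 expression. ILC2 carry no antigen receptor and respond to alarm signals released by stromal and epithelial cells. In fat, both cell types are known to carry ST2, the receptor for interleukin-33 encoded by Il1rl1, and to express Gata3, and both are studied there as regulators of inflammation and metabolism.

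In units of 1000000 gene counts, the depth was 21.0 to 41.3 per library, with a median of 34.6. Levels are counts scaled to 1000000 gene counts per library (CPM), and a count of 0 allows up to 0.0726 to 0.143 CPM, taking 3 counts as the limit, for counting error only. A gene was called where the edgeR quasi-likelihood test gave an adjusted p under 0.05 over all genes tested, and fold changes are log2 values under TMM scaling. Scaling by library totals would move the median of all genes by 0.13 in Y665F against WT females, by -0.15 in Y665H against Y665F females, by 0.17 in WT males against WT females and by -0.19 in the sex interaction of Y665F. All 12 adipocyte markers had a mean of at least 1 CPM in every group, with summed levels of 8266 to 29248 CPM per library. Skeletal muscle markers summed to 654 to 1436 CPM in WT females, 182 to 2051 in Y665F females and 125 to 2244 in Y665H females, and epididymis markers to 0.502 to 14445 CPM among the males, with a highest female value of 2.16 CPM. Near the counting floor, taken as a group median under 10 counts, were Areg in all 6 groups, Ctla4 in the WT and Y665H groups of both sexes and Klrg1 in Y665H females. The 2 libraries with the most epithelial transcripts were Y665F female 3, at 1879.8 CPM over 11 markers, and WT male 2, at 1407 CPM.

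Promoter windows were looked up by symbol, and 7 of the 10 genes had a promoter window in the RefSeq table of build GRCm38.p6, from 250 bases before to 50 bases after an annotated start, and these gave 9 windows. Ikzf2, Icos and Klrg1 had none. The windows of 3 genes called between the mutant females are shown with that of Tnfrsf18, which holds a motif match, with capitals marking matches to TTCNNNGAA, the palindromic motif bound by STAT5, and to AGATAA or its reverse complement TTATCT, a motif of GATA factors.
Foxp3, first start, chrX:7579426-7579725, plus strand: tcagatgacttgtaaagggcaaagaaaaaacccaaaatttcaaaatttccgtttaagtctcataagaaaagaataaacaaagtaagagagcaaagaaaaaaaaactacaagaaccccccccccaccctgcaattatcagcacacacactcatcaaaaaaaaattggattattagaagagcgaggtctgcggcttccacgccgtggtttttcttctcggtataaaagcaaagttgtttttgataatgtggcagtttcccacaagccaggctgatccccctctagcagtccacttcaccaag
Foxp3, second start, chrX:7580233-7580532, plus strand: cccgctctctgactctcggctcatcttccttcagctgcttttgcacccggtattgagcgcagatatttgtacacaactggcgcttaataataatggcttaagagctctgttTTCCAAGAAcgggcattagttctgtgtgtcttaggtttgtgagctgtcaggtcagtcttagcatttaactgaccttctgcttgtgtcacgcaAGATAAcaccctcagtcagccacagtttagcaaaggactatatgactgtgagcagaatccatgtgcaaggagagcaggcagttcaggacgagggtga
Il1rl1, first start, chr1:40429320-40429619, plus strand: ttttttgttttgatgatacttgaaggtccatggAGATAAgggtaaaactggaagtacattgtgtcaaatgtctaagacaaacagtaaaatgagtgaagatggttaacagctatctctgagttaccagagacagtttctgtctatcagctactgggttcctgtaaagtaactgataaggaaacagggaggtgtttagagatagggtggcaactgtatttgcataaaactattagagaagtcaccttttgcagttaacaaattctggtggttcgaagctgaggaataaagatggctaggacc
Il1rl1, second start, chr1:40439379-40439678, plus strand: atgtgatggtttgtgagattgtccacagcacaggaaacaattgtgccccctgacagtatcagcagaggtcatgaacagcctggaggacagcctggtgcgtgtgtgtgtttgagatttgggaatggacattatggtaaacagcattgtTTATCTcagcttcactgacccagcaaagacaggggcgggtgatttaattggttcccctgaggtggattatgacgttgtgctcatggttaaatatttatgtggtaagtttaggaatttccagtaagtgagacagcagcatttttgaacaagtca
Ctla4, chr1:60908775-60909074, plus strand: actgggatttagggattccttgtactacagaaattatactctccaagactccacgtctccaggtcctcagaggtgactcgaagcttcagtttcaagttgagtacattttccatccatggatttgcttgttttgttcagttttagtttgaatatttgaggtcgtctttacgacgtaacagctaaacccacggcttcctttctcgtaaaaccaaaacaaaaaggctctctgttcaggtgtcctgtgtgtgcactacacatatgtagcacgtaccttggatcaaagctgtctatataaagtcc
Tnfrsf18, chr4:156026072-156026371, plus strand: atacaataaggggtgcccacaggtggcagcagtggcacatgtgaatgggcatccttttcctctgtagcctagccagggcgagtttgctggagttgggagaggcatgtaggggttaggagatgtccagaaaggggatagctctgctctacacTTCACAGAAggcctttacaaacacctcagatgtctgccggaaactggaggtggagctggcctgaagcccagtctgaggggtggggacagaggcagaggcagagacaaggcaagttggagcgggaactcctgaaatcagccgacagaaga
TTCNNNGAA was found in 2 of the 9 windows, at -139 from the second Foxp3 start and at -99 from the Tnfrsf18 start, and in 8.30% of all 32851 promoter windows of the table. AGATAA, on either strand, was found in 3 of the 9 windows, the second of Foxp3 and both of Il1rl1, and in 11.2% of all windows. The 2 motifs did not overlap in any of the printed windows. A match describes the letters in these windows and is not evidence of binding.

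Positions follow GENCODE M21 on GRCm38, the assembly also called mm10. Foxp3 lies at chrX:7573644-7595245, Ikzf2 at chr1:69531214-69687245, Ctla4 at chr1:60887000-60915832, Icos at chr1:60977927-61000320 and Il1rl1 at chr1:40429570-40465415. Gata3 lies at chr2:9857078-9890034, Areg at chr5:91139599-91148432 and Klrg1 at chr6:122270596-122282882. Tnfrsf4 at chr4:156013843-156016612 and Tnfrsf18 at chr4:156026164-156028895 are neighbours, as are Ctla4 and Icos. Exons of Foxp3 overlap those of Ppp1r3f over 266 bases and of Ccdc22 over 590 bases on the opposite strand, and those of the non-coding Flicr over 853 bases on its own strand. Ikzf2, Gata3 and Tnfrsf18 also overlap annotated neighbours. Since the strand setting of the counting is not given in the sources used here, the values of these 4 genes are uncertain to that extent.

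In Y665F females, 2 receptors of the 10 genes were higher than in WT females by the test, and others lay higher without passing it. Of 9 genes tested, 2 rose, the inhibitory receptors Ctla4 and Klrg1, against 2.31% of 15642 tested genes called higher (3.33% in either direction), and none fell, against 1.02% called lower. All 9 log2 fold changes were positive, with a median of 1.11 against 0.02 for all genes tested. An unadjusted p under 0.05 was reached by 7 of the 9, against 26.3% of tested genes. The 4 Y665F libraries lay above all 4 WT libraries for 6 of the 10 genes, Foxp3, Ikzf2, Ctla4, Icos, Il1rl1 and Klrg1, against 19.9% of tested genes, and below them for none (2.96%). Ctla4 and Klrg1 would not have passed the filter on low counts from their WT libraries alone, so the 2 calls do not stand as a share of all 10 genes. Icos, with 10 counts in WT female 4, was at the limit of that filter. DESeq2 called 6 of the 10 genes higher, Areg, Ctla4, Foxp3, Ikzf2, Il1rl1 and Klrg1, against 5.79% of genes. With the skeletal muscle markers as a covariate edgeR called 0 of all genes, with log2 fold changes of 3.38 for Ctla4 (adjusted p 0.116) and 1.42 for Klrg1 (adjusted p 0.157). With library totals, or with the epithelial markers as a covariate, it called 5 higher, Ctla4, Foxp3, Icos, Il1rl1 and Klrg1. With all 24 libraries it called 4, Ctla4, Foxp3, Ikzf2 and Il1rl1, and with the replicate block 1, Ctla4. The shares of all genes called in these last 4 fits are not given here. In bulk RNA such as this, fewer cells of a type and less RNA per cell cannot be told apart.

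In Y665H females, none of 7 genes tested against WT females was called by edgeR, against 3.34% of 15469 tested genes (1.53% higher and 1.8% lower). An unadjusted p under 0.05 was reached by 1, against 23.8% of tested genes, and DESeq2 called 1, Ikzf2 (11.5% of genes). The 4 Y665H libraries lay below all WT libraries for 1 of the 7 genes tested, Tnfrsf18 (6.81% of tested genes), and above them for none (6.45%). The Y665H libraries also lay below them for Klrg1, which did not pass the filter on low counts in this comparison. Set directly against each other, the mutants gave more calls: 5 of 9 genes tested were lower in Y665H than in Y665F females, Foxp3, Ctla4, Icos, Il1rl1 and Klrg1, against 8.59% of 15493 tested genes called lower (17.4% in either direction), and none was higher (8.77%). For those 5 genes and Tnfrsf18 every Y665H library lay below every Y665F library, as for 21.5% of tested genes, and for no gene was it above them (6.62%). Ctla4 and Klrg1 would not have passed the filter on low counts from their Y665H libraries alone, so the 5 calls do not stand as a share of all 10 genes. DESeq2 called the same 5 genes and Gata3 lower (10.8% of genes). The 3 comparisons among females share their libraries.

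**Figure D1:**
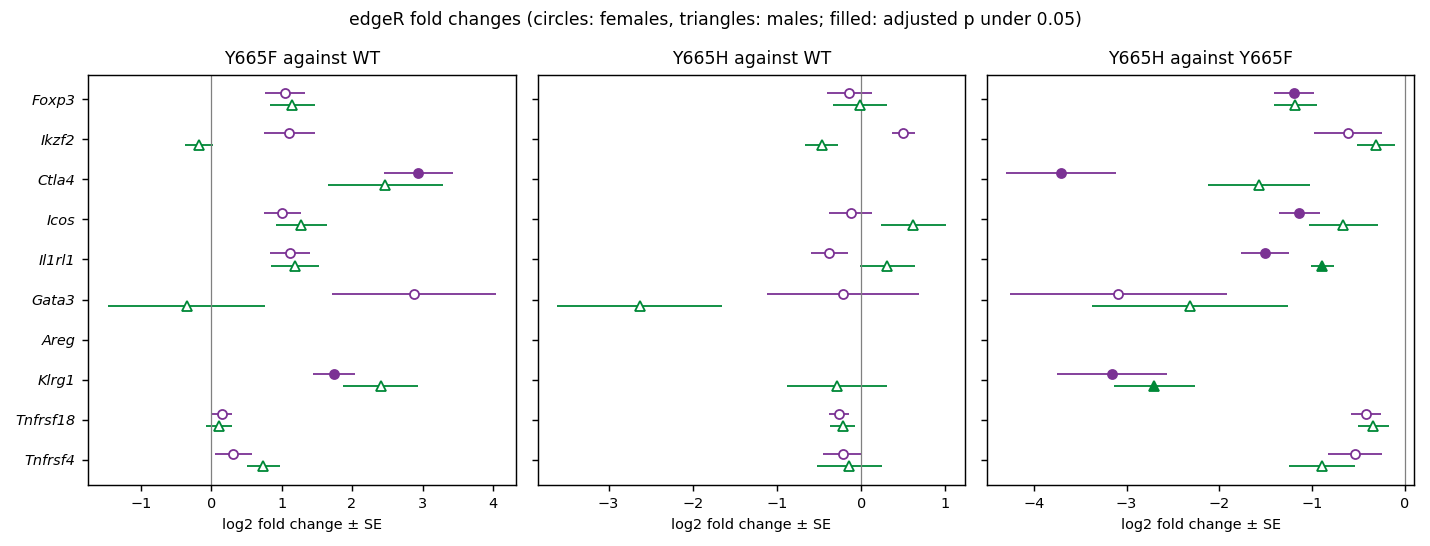
Log2 fold changes with standard errors (x axis) of the 10 genes (y axis) from edgeR, for Y665F against WT, Y665H against WT and Y665H against Y665F, with females as circles, males as triangles and called genes filled. Ctla4 and Klrg1 are filled in females for Y665F against WT, 5 genes in females and 2 in males for Y665H against Y665F, and none for Y665H against WT; Areg, and Ctla4 and Klrg1 where they have no symbol, did not pass the filter on low counts.

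In males, the same comparisons gave few calls. None of 9 genes tested was called by edgeR in Y665F against WT males, as for all 16240 genes tested (0%). However, 6 of the 9 had an unadjusted p under 0.05, against 17.1% of tested genes. DESeq2 called 3, Foxp3, Il1rl1 and Klrg1, higher (3.76% of genes). Fitted on all 24 libraries, edgeR called 5 higher, these 3 with Ctla4 and Icos (5.45% of genes). The Y665F males lay above all WT males for 6 genes, Foxp3, Ctla4, Icos, Il1rl1, Klrg1 and Tnfrsf4, against 5.59% of tested genes, and below them for none (3.26%). Ctla4, Icos and Klrg1 would not have passed the filter on low counts from the WT males alone, so these counts of genes are not fair shares. In Y665H against WT males, 0 of 8 genes tested were called (0% of 16406 genes). An unadjusted p under 0.05 was reached by 2, against 11.4% of tested genes, and DESeq2 called 0 (0.741% of genes). No gene had all Y665H males above the WT males (2.43% of tested genes) or below them (1.18%). Between the mutants, Il1rl1 and Klrg1 were lower in Y665H males, 2 of 9 genes tested against 0.901% of 15986 genes called lower (1.03% in either direction, 0.125% higher). Klrg1 would not have passed the filter on low counts from the Y665H males alone, so the 2 calls do not stand as a share of all genes described. DESeq2 called these 2 and Foxp3 lower (4.18% of genes), and edgeR on all 24 libraries Foxp3 and Klrg1 (1.77% of genes). All Y665H males lay below all Y665F males for these 2 genes and Foxp3 (6.17% of tested genes) and above them for none (6.29%). The biological coefficient of variation was 47.2% in Y665F against WT males and 26.6% in the same comparison of females.

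The difference between the sexes in the response to each mutation was tested as an interaction over the 16 libraries of WT and that mutant. For Y665F, 0 of 9 genes passed in edgeR (0% of 16732 genes) and for Y665H 0 of 8 (0.0119% of 16827 genes). In both, 1 gene, Ikzf2, had an unadjusted p under 0.05, against 21.8% of tested genes for Y665F and 18.3% for Y665H. Its log2 interactions (males minus females) were -1.28 (SE 0.44 and adjusted p 0.154 in edgeR) and -0.97 (SE 0.24 and adjusted p 0.100 in edgeR). For Y665H, DESeq2 called Ikzf2 (4.7% of genes). Without WT male 1, edgeR called 2 genes for Y665H, Ikzf2, lower at an adjusted p of 0.0179, and Il1rl1, higher, whose interaction over all 16 libraries was 0.69 (SE 0.41 and adjusted p 0.373 in edgeR). For Y665F, DESeq2 called 0 of the 10 genes (7.01% of genes). Calls made in females alone therefore do not establish that females responded differently.

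Foxp3 is the factor that defines regulatory T cells. It was at 1.63, 0.882, 2.04 and 1.82 CPM in WT females, at 4.47, 3.19, 2.71 and 4.04 CPM in Y665F females and at 1.06, 1.67, 1.62 and 1.39 CPM in Y665H females, in order of replicate number. The lowest Y665F female was above the highest female of both other groups, while WT and Y665H females overlapped. Against WT females, the log2 fold change was 1.05 (SE 0.28 and adjusted p 0.0780 in edgeR) in Y665F and -0.14 (SE 0.26 and adjusted p 0.782 in edgeR) in Y665H. Between the mutants, Foxp3 was 2.28-fold lower in Y665H females, with log2 -1.19 (SE 0.22 and adjusted p 0.00866 in edgeR). This call was kept whichever 1 of the 8 libraries was left out.

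In males, Foxp3 was again highest in Y665F. WT males had 2.13, 0.959, 1.81 and 2.20 CPM, Y665F males 3.15, 3.09, 4.29 and 4.91 CPM and Y665H males 2.31, 1.47, 1.48 and 1.79 CPM. All 4 Y665F males were above all 8 other males, and the lowest WT value was that of WT male 2, the library with the most epididymis transcripts. The Foxp3 log2 fold change was 1.15 (SE 0.31 and adjusted p 0.197 in edgeR) in Y665F against WT, -0.015 (SE 0.32 and adjusted p 0.981 in edgeR) in Y665H against WT and -1.18 (SE 0.23 and adjusted p 0.0553 in edgeR) between the mutants, and edgeR called none. DESeq2 called Foxp3 in Y665F against WT males (adjusted p 0.0173) and between the mutant males (adjusted p 4.58e-04).

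**Figure D2:**
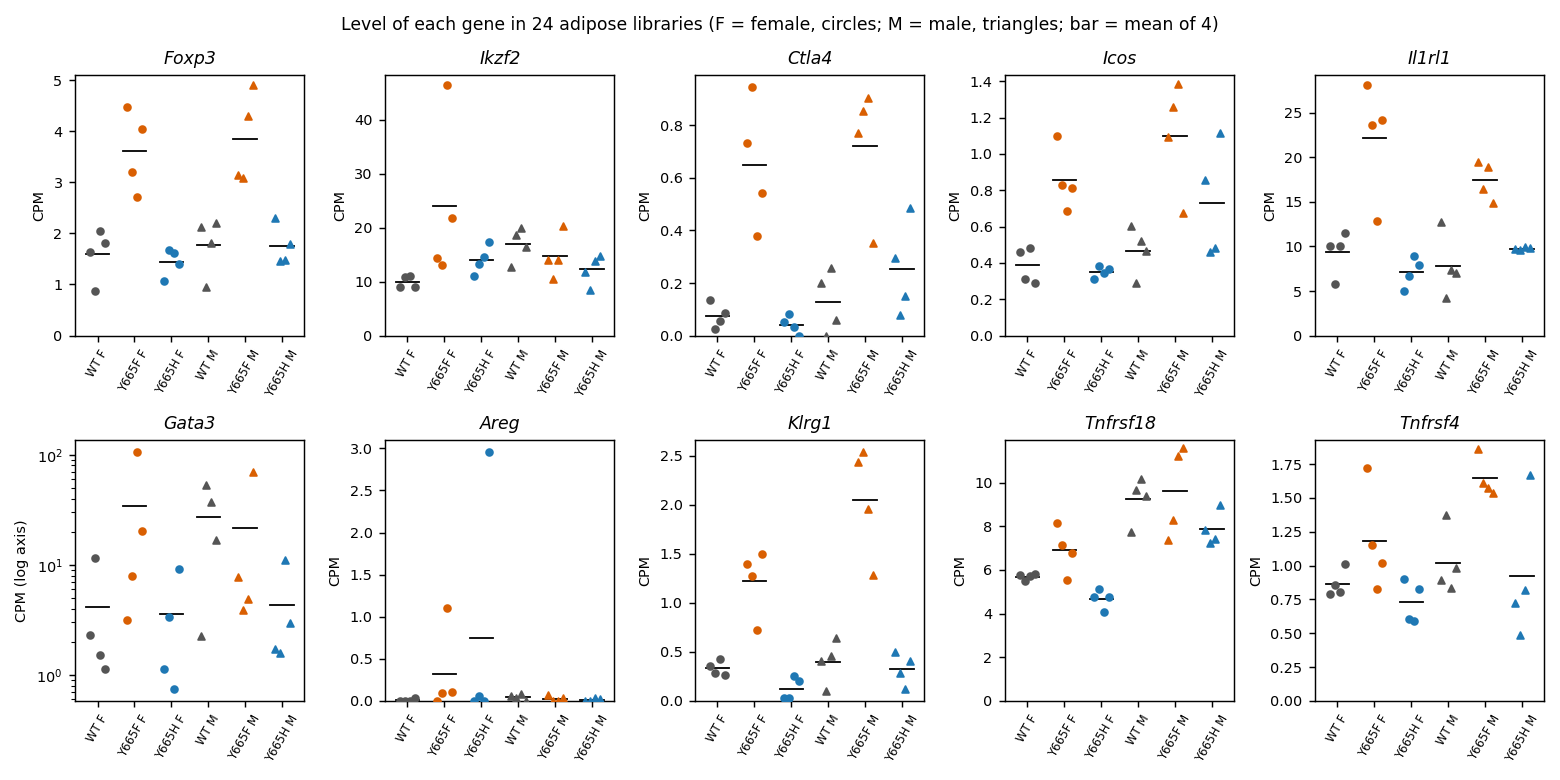
Level of each of the 10 genes in CPM (y axes, logarithmic for Gata3) in the 24 libraries by group (x axes), with females as circles, males as triangles and the mean of 4 libraries as a bar. Foxp3, Ctla4, Icos, Il1rl1 and Klrg1 are higher in Y665F than in WT and Y665H females without overlap, whereas Gata3, Ikzf2 and Areg have single high libraries.

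Il1rl1, the receptor through which interleukin-33 acts on both cell types, was the best measured of the receptors that differed. It was at 10.0, 5.76, 10.1 and 11.5 CPM in WT, 28.1, 23.6, 12.8 and 24.2 CPM in Y665F and 5.01, 6.72, 8.92 and 7.89 CPM in Y665H females. Y665F females were above all others, the lowest being Y665F female 3. The log2 fold change was 1.12 (SE 0.28 and adjusted p 0.0695 in edgeR) in Y665F against WT, -0.38 (SE 0.22 and adjusted p 0.328 in edgeR) in Y665H against WT and -1.50 (SE 0.26 and adjusted p 0.00747 in edgeR) in Y665H against Y665F, the last a 2.84-fold lower level. Leaving out Y665F female 3 brought the first to 1.32 with an edgeR adjusted p of 0.0128, a call.

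Among males, Il1rl1 was at 12.8, 4.22, 7.34 and 7.06 CPM in WT, 19.5, 16.5, 19.0 and 14.9 CPM in Y665F and 9.72, 9.61, 9.95 and 9.77 CPM in Y665H. The Y665F males were above all other males, and WT male 1 was the highest of the other 8. Against WT males, log2 fold changes were 1.19 (SE 0.34 and adjusted p 0.215 in edgeR) in Y665F and 0.31 (SE 0.33 and adjusted p 0.604 in edgeR) in Y665H. Without WT male 1 the first was called, at 1.57 with an edgeR adjusted p of 0.0407. Y665H males were below Y665F males at log2 -0.89 (SE 0.13 and adjusted p 0.0219 in edgeR), a call kept without Y665F male 4 or Y665H male 2 and lost without any other single library, with edgeR adjusted p up to 0.114.

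Ctla4, an inhibitory receptor that competes with Cd28 for the ligands Cd80 and Cd86, was near the counting floor in 4 of the 6 groups. Its counts were 5, 1, 2 and 3 in WT females, 20, 32, 11 and 16 in Y665F females and 2, 3, 1 and 0 in Y665H females, and 7, 0, 9 and 2, 24, 34, 19 and 11, and 9, 3, 5 and 20 in the 4 males of WT, Y665F and Y665H. Summed over 4 libraries and with 95% Poisson intervals for counting error only, it had 11 counts, 0.0747 CPM (0.0373 to 0.134) in WT females, 79 counts, 0.660 CPM (0.523 to 0.823) in Y665F females and 6 counts, 0.0421 CPM (0.0154 to 0.0916) in Y665H females. In females the Y665F counts exceeded all others, and in males Y665F overlapped Y665H. Fitted log2 fold changes were 2.94 (SE 0.49 and adjusted p 0.0240 in edgeR) in Y665F against WT females, -3.71 (SE 0.59 and adjusted p 0.00529 in edgeR) in Y665H against Y665F females, 2.47 (SE 0.81 and adjusted p 0.242 in edgeR) in Y665F against WT males and -1.57 (SE 0.55 and adjusted p 0.192 in edgeR) in Y665H against Y665F males. The first call was kept without Y665F female 3 and lost without any other single library, with edgeR adjusted p up to 0.0736. The second was kept in all 8 such fits.

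Klrg1, an inhibitory receptor of differentiated lymphocytes found on subsets of regulatory T cells, ILC2 and natural killer cells, followed the same order. Its level was 0.353, 0.285, 0.430 and 0.260 CPM in WT, 1.39, 1.27, 0.721 and 1.49 CPM in Y665F and 0.0258, 0.0274, 0.249 and 0.199 CPM in Y665H females, and the 3 groups did not overlap. Y665H females, with 1 to 8 counts per library, were near the floor, and over 4 libraries they had 17 counts, 0.119 CPM (0.0695 to 0.191), against 49 counts, 0.333 CPM (0.246 to 0.440) in WT females. In the tests, the log2 fold change was 1.74 (SE 0.30 and adjusted p 0.0251 in edgeR) in Y665F against WT and -3.16 (SE 0.59 and adjusted p 0.00972 in edgeR) in Y665H against Y665F females. Y665H against WT females gave -1.42 (SE 0.59 and adjusted p 0.228 in edgeR) without the filter on low counts, which Klrg1 did not pass.

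The call of Klrg1 in Y665F against WT females was kept without WT female 3 or Y665F female 3 and lost without any of the other 6 libraries, with edgeR adjusted p up to 0.0824. The call between the mutants in females was kept in all 8 such fits. In males Klrg1 was at 0.403, 0.0959, 0.460 and 0.637 CPM in WT, 2.44, 2.54, 1.95 and 1.28 CPM in Y665F and 0.494, 0.283, 0.121 and 0.411 CPM in Y665H. Y665F males were above all other males. The male log2 fold change was 2.41 (SE 0.53 and adjusted p 0.142 in edgeR) in Y665F against WT, -0.29 (SE 0.59 and adjusted p 0.798 in edgeR) in Y665H against WT and -2.70 (SE 0.44 and adjusted p 0.0314 in edgeR) between the mutants, the last kept without Y665F male 4 and lost without any other single library, with edgeR adjusted p up to 0.116. With the epididymis markers as a covariate the fold change was -2.70 and the adjusted p 0.0598. Markers of natural killer and cytotoxic cells, which also carry Klrg1, summed to 7.15 to 9.85 CPM in WT, 15.9 to 18.5 in Y665F and 3.30 to 3.81 in Y665H females over 10 genes, none of them at 0 in any group. Their part in the values of Klrg1 was not tested.

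Icos, a co-stimulatory receptor of activated and regulatory T cells and of ILC2, had 9 to 50 counts per library. It was at 0.461, 0.311, 0.484 and 0.289 CPM in WT, 1.10, 0.828, 0.687 and 0.815 CPM in Y665F and 0.310, 0.384, 0.342 and 0.369 CPM in Y665H females. Y665F females were above both other groups, which overlapped. Log2 fold changes were 1.01 (SE 0.26 and adjusted p 0.0733 in edgeR) in Y665F against WT, -0.12 (SE 0.26 and adjusted p 0.809 in edgeR) in Y665H against WT and -1.14 (SE 0.22 and adjusted p 0.0115 in edgeR) between the mutants. The last was -1.06 with the skeletal muscle markers as a covariate and was not called, at an edgeR adjusted p of 0.0719. In males the log2 fold change of Icos was 1.28 (SE 0.36 and adjusted p 0.216 in edgeR) in Y665F and 0.62 (SE 0.38 and adjusted p 0.426 in edgeR) in Y665H against WT, with 0.288 to 0.604 CPM in WT, 0.674 to 1.38 CPM in Y665F and 0.463 to 1.11 CPM in Y665H males.

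Tnfrsf18 encodes GITR and Tnfrsf4 encodes OX40, both co-stimulatory receptors of the tumour necrosis factor receptor family. Tnfrsf18 was not called between genotypes: it was at 5.75, 5.47, 5.72 and 5.81 CPM in WT, 8.17, 7.13, 5.53 and 6.79 CPM in Y665F and 4.75, 5.13, 4.07 and 4.74 CPM in Y665H females. Y665H females lay below all other females. The log2 fold change was 0.15 (SE 0.15 and adjusted p 0.534 in edgeR) in Y665F against WT, -0.27 (SE 0.12 and adjusted p 0.212 in edgeR) in Y665H against WT and -0.42 (SE 0.16 and adjusted p 0.108 in edgeR) between the mutants. The last became a call without Y665F female 3, at -0.52 with an edgeR adjusted p of 0.0335. In males Tnfrsf18 was at 7.71 to 10.2 CPM in WT, 7.38 to 11.6 in Y665F and 7.25 to 8.97 in Y665H, and the groups overlapped. Tnfrsf4 had 19 to 69 counts per library, with 0.787 to 1.01 CPM in WT, 0.824 to 1.72 in Y665F and 0.591 to 0.904 in Y665H females, and 0.834 to 1.37, 1.54 to 1.86 and 0.488 to 1.67 CPM in the males. Y665F males were above all WT males for Tnfrsf4, at a log2 fold change of 0.74 (SE 0.24 and adjusted p 0.240 in edgeR), and no comparison of Tnfrsf4 was called.

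Gata3, the transcription factor of type 2 lymphocytes that is also made in luminal and other epithelial cells, varied widely within groups. It was at 2.31, 11.5, 1.53 and 1.13 CPM in WT, 3.15, 7.92, 107 and 20.4 CPM in Y665F and 1.14, 3.35, 0.746 and 9.23 CPM in Y665H females. In males it was at 2.25, 52.9, 37.5 and 16.8 CPM in WT, 7.80, 3.87, 4.86 and 69.5 CPM in Y665F and 1.71, 1.57, 11.1 and 2.97 CPM in Y665H. All groups overlapped within each sex, and single libraries reached several times the level of their group. The log2 fold changes against WT were 2.88 (SE 1.17 and adjusted p 0.166 in edgeR) in Y665F females, -0.22 (SE 0.90 and adjusted p 0.907 in edgeR) in Y665H females, -0.35 (SE 1.12 and adjusted p 0.880 in edgeR) in Y665F males and -2.63 (SE 0.98 and adjusted p 0.402 in edgeR) in Y665H males. Without Y665F female 3 the first was 1.21, and with the epithelial markers as a covariate, a fit added after the values were seen, it was 0.31. The last was -0.65 with that covariate and -0.15 with the epididymis markers. In the main fits edgeR called no comparison of genotypes for Gata3. Y665H against Y665F males gave -2.31 (SE 1.06 and adjusted p 0.296 in edgeR). With the epithelial markers as a covariate, Gata3 was called lower in Y665H there, at an edgeR adjusted p of 0.0195.

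Libraries high in Gata3 were also high in epithelial transcripts. The 11 epithelial markers summed to 1879.8 CPM in Y665F female 3 and 366 CPM in Y665F female 4, against 137 and 234 CPM in the other two females of that group. They summed to 548 CPM in Y665F male 4, and to 1407, 719 and 367 CPM in WT males 2, 3 and 4 against 89.7 CPM in WT male 1. No epithelial marker was at 0 in any group. The 3 genes most like Gata3 over the 24 libraries, of 14832 compared, were Aim1l, Fam83g and Pvrl4, with Spearman correlations of 0.93, 0.92 and 0.91, which were 0.90, 0.85 and 0.90 after group means were subtracted. Epithelium in these libraries was not tested as the source of Gata3.

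Ikzf2, which encodes Helios, a factor of many regulatory T cells that other cells also express, was highest in the same library. It was at 9.01, 10.8, 11.1 and 9.05 CPM in WT, 14.3, 13.1, 46.5 and 21.9 CPM in Y665F and 11.1, 13.3, 14.5 and 17.3 CPM in Y665H females, with Y665F female 3 far above the rest. All Y665F females were above all WT females, and the log2 fold change of 1.11 (SE 0.36 and adjusted p 0.114 in edgeR) was 0.60 without Y665F female 3 and 0.39 with the epithelial markers as a covariate. In Y665H against WT females it was 0.50 (SE 0.14 and adjusted p 0.0759 in edgeR), which DESeq2 called and edgeR did not. Y665F males had 13.9, 10.5, 14.0 and 20.2 CPM and Y665H males 11.9, 8.46, 13.9 and 14.8 CPM, overlapping the WT males at 12.8 to 20.0 CPM, with -0.17 (SE 0.20 and adjusted p 0.657 in edgeR) for Y665F and -0.47 (SE 0.20 and adjusted p 0.402 in edgeR) for Y665H against WT. Over the 24 libraries Ikzf2 and Gata3 had a Spearman correlation of 0.67, and of 0.76 after group means were subtracted.

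**Figure D3:**
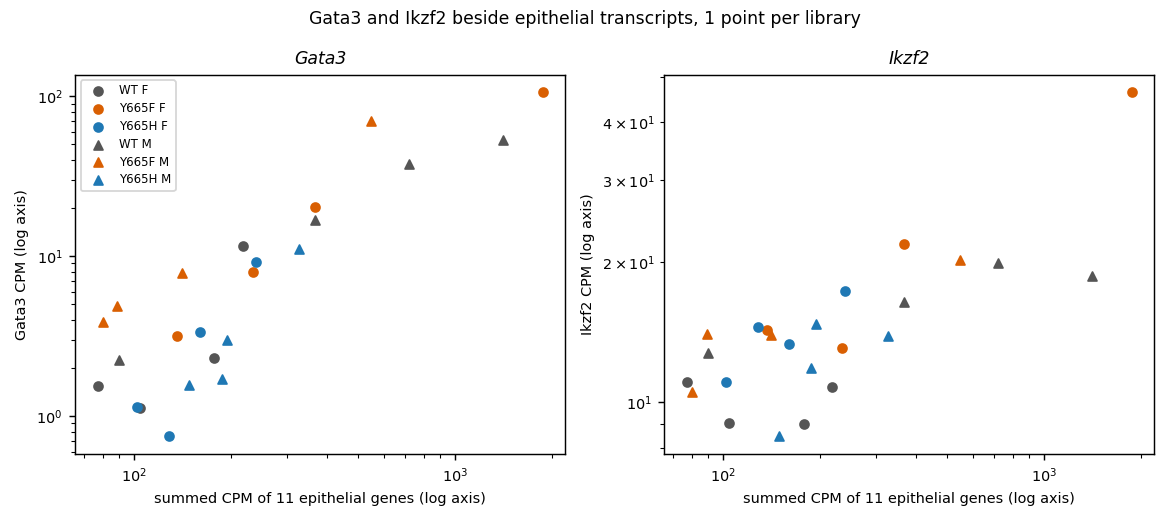
Levels of Gata3 (left) and Ikzf2 (right) in CPM (y axes, logarithmic) against the summed CPM of 11 epithelial markers (x axes, logarithmic), 1 point per library. Y665F female 3, at 1879.8 CPM of epithelial transcripts, is the highest point for both genes.

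Areg encodes amphiregulin, an epidermal growth factor receptor ligand that regulatory T cells and ILC2 use in tissue repair and that epithelial cells also make. It was near the counting floor in all 6 groups and did not pass the filter in any comparison. Of the 24 libraries, 22 had 0 to 3 counts. The exceptions were Y665F female 3, with 32 counts (1.10 CPM), and Y665H female 4, with 104 counts (2.95 CPM). Y665F female 3 had the most epithelial transcripts. Y665H female 4 had a pan T cell sum of 30.0 CPM against 9.23 to 14.1 CPM in the other three of its group, and Cd4, Cd8a and Cd8b1 together at 13.1 CPM against 1.93 to 3.02 CPM. It also had the highest Gata3 and Ikzf2 of its group, at 9.23 and 17.3 CPM, but not the highest Foxp3 (1.39 CPM) or Ctla4 (0 counts). Epithelial markers summed to 102 to 239 CPM among Y665H females. The source of Areg was not tested. Summed over the group, Areg had 1 count, 0.00679 CPM (1.72e-04 to 0.0378) in WT females and 38 counts, 0.317 CPM (0.225 to 0.436) in Y665F females, where DESeq2 called it higher and edgeR did not test it.

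Levels between genes can be compared only per length of transcript. Per kilobase of merged exons and 1000000 gene counts (RPKM), as the median of 24 libraries, Tnfrsf18 was highest at 4.80, followed by Il1rl1 at 1.45, Ikzf2 at 1.20 and Gata3 at 1.10. Tnfrsf4 was at 0.658, Foxp3 at 0.422, Klrg1 at 0.297, Icos at 0.146, Ctla4 at 0.0757 and Areg at 0.0218. The ranges over libraries of Il1rl1, Ikzf2 and Gata3, 0.612 to 4.08, 0.728 to 4.00 and 0.188 to 26.8 RPKM, overlapped, so their order is not firm. The Gata3 range also spanned that of Tnfrsf18, 2.67 to 7.60 RPKM, and among WT males the Gata3 median of 6.82 RPKM was above the Tnfrsf18 median of 6.25 RPKM. Foxp3 was below Tnfrsf18 in every library.

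The 5 genes that differed between the mutants in females had positive correlations across libraries. They were picked by that group difference, which the correlations over 24 libraries include. Their 10 pairwise Spearman correlations over 24 libraries, which share groups and depth, were 0.73 to 0.90, and 0.24 to 0.74 after group means were subtracted. The 3 genes nearest to Foxp3 were Ccdc88b, Fyb and Gimap3, with correlations of 0.90, 0.88 and 0.87, and 0.61, 0.65 and 0.53 after group means were subtracted. Those nearest to Il1rl1 were Tspan32, Arhgef3 and Lrmp, with 0.93, 0.93 and 0.92, and 0.59, 0.76 and 0.82 after subtraction. For Areg the nearest, Pms1, Sfn and Sdc1, reached 0.65, 0.63 and 0.63, from counts mostly at the floor.

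General T cell transcripts were also higher in Y665F females. Of 11 pan T cell genes, 10 rose in Y665F against WT females, where 2.31% of all tested genes were called higher, with a median log2 fold change of 1.86 against 0.02 for all genes, and Cd4 and Cd8a, which mark helper and cytotoxic T cells, rose by 1.84 and 2.06 (edgeR adjusted p 0.00884 and 0.00978). Cd3e, a subunit of the T cell receptor complex, was at 3.90 ± 0.773 CPM in Y665F, 0.940 ± 0.332 CPM in WT and 1.16 ± 0.753 CPM in Y665H females (SD, n = 4). Between the mutants, 7 of the 11 were lower in Y665H females (8.59% of all tested genes) and 4 in Y665H males (0.901%), and 0 of 11 were called by edgeR in Y665F against WT males, where 9 had an unadjusted p under 0.05 and DESeq2 called 8 higher. Over all genes in Y665F against WT males, 17.1% had an unadjusted p under 0.05 and DESeq2 called 3.76% higher. The pan T cell genes were chosen with results of these libraries known.

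Foxp3 was therefore set against counts of the T cell receptor complex in the same library. Per 100 counts of Cd3d, Cd3e, Cd3g and Cd247, there were 32.8 ± 11.8 Foxp3 counts in WT, 28.5 ± 2.43 in Y665F and 26.7 ± 12.5 in Y665H females, and 22.7 ± 7.71, 23.4 ± 10.9 and 17.2 ± 2.72 in WT, Y665F and Y665H males (SD, n = 4). None of 6 comparisons passed a two-sided exact permutation test, with p of 0.229 to 0.971, where 4 against 4 libraries allow no p below 0.0286. Cd247 made up 28.9% of those counts in Y665F females and 41.8% in Y665F males, against 57.5 to 69.1% in the other four groups. Unlike the other pan T cell genes it was not called in Y665F females, at a log2 fold change of 0.18 (SE 0.22 and adjusted p 0.615 in edgeR).

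Without Cd247, a denominator added after these values were seen, the ratio took other values. There were 40.0 ± 4.13 Foxp3 counts per 100 counts of Cd3d, Cd3e and Cd3g in Y665F females and 79.8 ± 26.3 in WT females (SD, n = 4), and the groups did not overlap. The log2 difference was -0.95 (SE 0.24, exact permutation p 0.0286, the smallest possible, 0.171 adjusted over 6 comparisons). In males the ratio was 40.7 ± 18.9 in Y665F and 63.8 ± 22.5 in WT, a log2 difference of -0.69 (SE 0.43, exact permutation p 0.143). No comparison of either ratio passed adjustment, which a single comparison at the smallest possible p could not have passed.

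**Figure D4:**
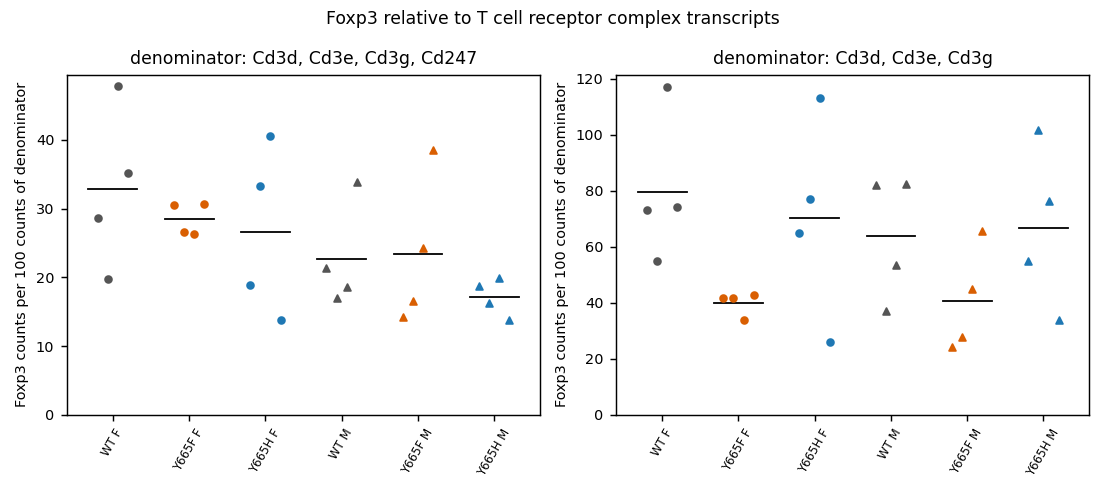
Foxp3 counts per 100 counts of T cell receptor complex genes (y axes) in the 24 libraries by group (x axes), with Cd247 in the denominator (left) and without it (right), 1 point per library and the mean of 4 as a bar. Without Cd247 the 4 Y665F females lie between 33.9 and 42.8, below the WT females at 54.8 to 116.9.

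Of 12 other regulatory T cell genes, 9 were tested in Y665F against WT females and 0 were called by edgeR, against 3.33% of all tested genes. An unadjusted p under 0.05 was reached by 1 (26.3% of tested genes), and DESeq2 called 2 higher (5.79% of genes). The median log2 fold change was 0.28, against 0.02 for all genes. Il2ra, the high-affinity subunit of the interleukin-2 receptor, was at 4.01 ± 0.784 CPM in Y665F, 4.42 ± 0.679 CPM in WT and 3.70 ± 0.888 CPM in Y665H females. Batf, a transcription factor of tissue regulatory T cells and other lymphocytes, was lower in Y665H than in Y665F females at a log2 fold change of -1.05 (SE 0.20 and adjusted p 0.0101 in edgeR). It was the only 1 of 8 tested that edgeR called, where 8.59% of all tested genes were called lower, and DESeq2 called 3 of the list lower (10.8% of genes). In Y665H against WT females, edgeR called 0 of 7 (3.34% of tested genes) and DESeq2 called 1 lower (11.5% of genes in either direction). In males 0 of the tested genes of this list were called in any comparison of genotypes by edgeR, with 1, 1 and 2 at an unadjusted p under 0.05 in Y665F against WT, Y665H against WT and Y665H against Y665F, and DESeq2 called 1, 0 and 0. Of all tested genes, edgeR called 0, 0 and 1.03% in that order, and 17.1, 11.4 and 18.0% had an unadjusted p under 0.05.

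Of 13 other ILC2 genes, 9 were tested in Y665F against WT females and 3 rose, against 2.31% of all tested genes. The list median was 0.75, against 0.02 for all genes. Those that rose were the interleukin-18 receptor Il18r1 at 1.64 (SE 0.20 and adjusted p 0.00978 in edgeR), the interleukin-9 receptor Il9r at 1.36 (SE 0.28 and adjusted p 0.0419 in edgeR) and the interleukin-7 receptor Il7r at 1.32 (SE 0.29 and adjusted p 0.0472 in edgeR), all of which T cells can also express. The same 3 genes and Id2, a factor that innate lymphoid cells need, were lower in Y665H than in Y665F females. These were 4 of 9 tested, against 8.59% of all tested genes called lower. The cytokines of ILC2, Il5 and Il13, were at 0.209 ± 0.0830 and 0.0496 ± 0.0170 CPM in Y665F females and 0.189 ± 0.171 and 0.0677 ± 0.0513 CPM in WT females (SD, n = 4), near the floor. No gene of this list was called in Y665H against WT females by edgeR or DESeq2, with 1 of 9 at an unadjusted p under 0.05 (23.8% of tested genes). In males edgeR called 0 of 9 in every comparison of genotypes. An unadjusted p under 0.05 was reached by 3, 1 and 5 in Y665F against WT, Y665H against WT and Y665H against Y665F. Of all tested genes, 17.1, 11.4 and 18.0% reached it in the same order. DESeq2 called 0, 0 and 1 in that order.

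The ligands and partner receptors of the 10 genes were described next. Il33, the ligand of ST2, was at 22.2 ± 4.82 CPM in WT, 32.3 ± 4.36 CPM in Y665F and 22.7 ± 6.07 CPM in Y665H females, and at 16.9 ± 4.64, 11.2 ± 2.73 and 19.2 ± 2.30 CPM in WT, Y665F and Y665H males. Neither Y665F against WT females, at log2 0.42 (SE 0.17 and adjusted p 0.171 in edgeR), nor the males, at log2 -0.54 (SE 0.25 and adjusted p 0.313 in edgeR), gave a call. Il1rap, the co-receptor of ST2, was not called by edgeR in any comparison. Il2, the cytokine, had means of at most 0.096 CPM in every group, at or under the floor.

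Il2rb, the interleukin-2 receptor subunit that regulatory T cells share with cytotoxic and natural killer cells, was lowest in Y665H and highest in Y665F females. It was at 4.12 ± 0.864 CPM in WT, 13.4 ± 2.04 CPM in Y665F and 2.01 ± 0.267 CPM in Y665H females, with log2 fold changes against WT of 1.57 (SE 0.20 and adjusted p 0.0113 in edgeR) and -1.01 (SE 0.20 and adjusted p 0.0379 in edgeR). It was the only gene among all 10 members and the 41 genes of the 3 related lists that edgeR called in Y665H against WT females. In males Il2rb was at 5.42 ± 2.25 CPM in WT, 20.6 ± 1.72 CPM in Y665F and 3.73 ± 2.92 CPM in Y665H. No comparison of genotypes in males was called by edgeR, and DESeq2 called Il2rb higher in Y665F than in WT males (adjusted p 2.23e-08) and lower in Y665H than in Y665F males (adjusted p 6.05e-06). Cd28 rose in Y665F females by a log2 fold change of 1.38 (SE 0.27 and adjusted p 0.0347 in edgeR). Of 12 ligand and partner receptor genes tested, edgeR called 2 higher and 1 lower in Y665F against WT females. Over all tested genes, 2.31% were called higher and 1.02% lower. Cdh2, also in this list, was at 7.41 ± 0.931 CPM in WT, 4.70 ± 0.563 CPM in Y665F and 5.89 ± 1.17 CPM in Y665H females. Icosl, the ligand of Icos, was lower in Y665H than in Y665F females at -0.72 (SE 0.11 and adjusted p 0.00436 in edgeR), as was Cd86, a ligand of Ctla4 and Cd28, at -0.99 (SE 0.21 and adjusted p 0.0151 in edgeR). The ligands of GITR and OX40, Tnfsf18 and Tnfsf4, had means under 0.27 CPM in every group.

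Other cell types that carry some of the 10 genes were followed by their markers. Mast cells also express Il1rl1 and Gata3; their 8 markers summed to 39.8 to 46.9 CPM in WT, 34.7 to 40.4 in Y665F and 43.0 to 46.3 in Y665H females, and edgeR called 0 of 7 tested in Y665F against WT females, with 1 at an unadjusted p under 0.05 and 1 called lower by DESeq2. In Y665H against WT females it called 0 of 7, with 0 at an unadjusted p under 0.05 and 0 called by DESeq2. B cell markers summed to 8.14 to 12.7 CPM in WT, 22.5 to 32.7 in Y665F and 7.65 to 12.2 in Y665H females over 8 genes, and 3 of 8 rose in Y665F females. Of 6 markers of lymph node stroma and vessels, Ccl21a was at 0 in every library of every group, and the sum was 5.70 to 9.00 CPM in WT, 4.88 to 9.43 in Y665F and 5.99 to 8.70 in Y665H females. Eosinophil markers summed to 0.933 to 1.42 CPM in WT, 1.82 to 5.65 in Y665F and 0.631 to 1.22 in Y665H females over 5 genes, of which Ear6 was at 0 in every library. Of 3 tested, 2 rose in Y665F against WT females and 2 were lower in Y665H than in Y665F females. Macrophage markers summed to 968 to 1348 CPM in WT, 1362 to 2171 in Y665F and 704 to 1046 in Y665H females over 10 genes. None of the 10 was called by edgeR in Y665F against WT females, with 5 at an unadjusted p under 0.05 and 4 called higher by DESeq2, and 6 were lower in Y665H than in Y665F females. Of all tested genes, edgeR called 2.31% higher in Y665F against WT females and 8.59% lower in Y665H against Y665F females. An unadjusted p under 0.05 was reached by 26.3% in Y665F against WT females and by 23.8% in Y665H against WT females. The part of these cell types in the values of the 10 genes was not tested.

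WT males and WT females differed in few of the 10 genes. Of 8 tested, 2 were higher in males, against 7.15% of 15865 tested genes called higher (13.1% in either direction), and none was lower (5.95%). They were Ikzf2 at log2 0.61 (SE 0.17 and adjusted p 0.04999 in edgeR), just under the threshold, and Tnfrsf18 at 0.55 (SE 0.15 and adjusted p 0.0450 in edgeR). WT males had 12.8, 18.7, 20.0 and 16.5 CPM of Ikzf2 and 7.71, 9.65, 10.2 and 9.40 CPM of Tnfrsf18, above all WT females for both genes (18.2% of tested genes), and no gene was below them (7.01%). DESeq2 called these 2 and Gata3 higher (14.3% of genes). Gata3, at log2 2.56 (SE 1.03 and adjusted p 0.123 in edgeR), was also called by edgeR without WT male 1, at an adjusted p of 0.0401, and was -0.48 and -0.66 with the epididymis and epithelial markers as covariates. The calls of Ikzf2 and Tnfrsf18 were kept without WT male 1 and lost without any other single library, with edgeR adjusted p up to 0.136 for Ikzf2 and 0.120 for Tnfrsf18. With the epididymis markers as a covariate the log2 differences of Ikzf2 and Tnfrsf18 were 0.30 and 0.38 (edgeR adjusted p 0.462 and 0.349), and with the epithelial markers 0.30 and 0.40 (edgeR adjusted p 0.464 and 0.351). Foxp3 averaged 1.78 ± 0.569 CPM among WT males against 1.59 ± 0.504 CPM for the females (SD, n = 4), at log2 0.011 (SE 0.35 and adjusted p 0.987 in edgeR). Of the related genes, the Helios relative Ikzf4 and the interleukin-25 receptor Il17rb were higher in WT males, at 1.49 (SE 0.35 and adjusted p 0.0310 in edgeR) and 2.01 (SE 0.38 and adjusted p 0.0188 in edgeR). Among WT males they ranged from 1.67 to 5.40 and from 3.86 to 14.9 CPM. Their values with the marker covariates are not given here. Over all genes, the calls fell from 2079 to 151 with the epithelial markers as a covariate.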

How the data were processed

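Total RNA depleted of ribosomal RNA was sequenced in paired-end libraries from a stranded kit, per the labels' protocols, from 24 adipose samples in 6 groups of 4. The authors deposited raw counts per gene symbol, 1 file per library. The submitters' processing notes name FastQC 0.11.9, Trimmomatic 0.36, STAR, SAMtools 1.9, Picard 2.9.2, HTSeq 0.9.1 and mm10. The annotation and the strand setting of the counting are not given in the sources used here. The 5 entries that name no gene held 24.8 to 39.7% of all counts and were left out. The ribosomal RNA precursor Rn45s held 3.27% (Y665H female 3) to 15.0% (Y665F male 3) of gene counts and stayed in the totals behind CPM. Its effect on the ranges in CPM was not tested.

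Each pairwise comparison was fitted on its 8 libraries, and each interaction on 16, with edgeR 4.0.16 and limma 3.58.1 in R 4.3.3 (filterByExpr, TMM, glmQLFit and glmQLFTest), with Benjamini-Hochberg adjustment over all genes tested and a threshold of 0.05. The SE is that of the fitted coefficient. DESeq2 1.42.0, other scaling, no filter, all 24 libraries, the replicate number as a block, marker covariates and each library left out were alternatives. The scripts were tested on simulated data. The Foxp3 ratio was compared by two-sided exact permutation of its log2 values over 70 rearrangements. Counts of any replicate pair differed by more than sampling noise, with a chi-square of at least 16.4 per degree of freedom over 36 pairs.

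All 10 genes were described in every group. From the other lists, at most 6 called genes per list and comparison, by p, were named, with any ligand or partner receptor, and the 3 genes with the highest Spearman correlation to Foxp3, Il1rl1, Gata3 or Areg among genes of at least 1 mean CPM. Il2ra, Il5, Il13, Cd3e and Cd247 were named outside this rule after their values were seen. A gene was near the counting floor where the group median was under 10 counts. The members and lists were chosen with earlier results of these data known.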

Additional observations from a re-analysis of the deposited data

Results flagged for a closer look

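In 58 sets of 4 library values, the highest and lowest were checked with Dixon's criterion at 95%, which chance alone meets in about 1 of 20 sets, and 6 values stood apart. For Gata3 these were Y665F male 4 at 69.5 CPM, Y665H male 3 at 11.1 CPM, WT female 2 at 11.5 CPM and Y665F female 3 at 107 CPM, each far above the other three libraries of its group. The same 4 libraries had 548, 326, 218 and 1879.8 CPM of epithelial markers, each the highest of its group. For Areg, the values that stood apart were Y665F female 3 at 1.10 CPM and Y665H female 4 at 2.95 CPM, in groups whose other libraries had 0 to 3 counts.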

How the results depend on the processing

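Over all genes tested, the number called in Y665F against WT females (521, of which 361 higher and 160 lower) was 2027 with DESeq2, 1164 with library totals (1025 higher, 139 lower), 0 with the skeletal muscle covariate and 67 to 747 with single libraries left out. In Y665H against WT females (516) it was 1749 with DESeq2, 250 with all 24 libraries, 32 with the replicate block and 20 to 1269 with single libraries left out. In Y665H against Y665F females (2689, 1358 higher and 1331 lower) it was 1583 with the replicate block, 3205 with library totals (799 higher, 2406 lower) and 1554 to 2839 with single libraries left out. In males, Y665F against WT (0) gave 1141 with DESeq2, 2261 with all 24 libraries and 0 to 570 with single libraries left out. Y665H against WT males (0) gave 119, 203 and 0 to 1 in the same order. Y665H against Y665F males (164) gave 1097 with DESeq2, 400 with all 24 libraries, 0 with the replicate block, 68 with the epididymis covariate, 287 with the epithelium covariate and 10 to 220 with single libraries left out. WT males against WT females (2079, 1135 higher and 944 lower) gave 4483 with DESeq2, 5987 with all 24 libraries, 825 with the replicate block, 179 and 151 with the epididymis and epithelium covariates, 2785 with library totals (2111 higher, 674 lower) and 251 to 5076 with single libraries left out. The interaction of Y665F (0) gave 1168 with DESeq2 and 0 to 1686, and that of Y665H (2) gave 715 with DESeq2, 72 with library totals, 1 with the replicate block and 0 to 1844. The causes were not tested.

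For Foxp3 per Cd3 counts, the log2 difference of Y665F and WT females (-0.13) was -0.88 with Cd3e alone, -0.95 without Cd247 and -0.35 to 0.071 with single libraries left out. Y665H against Y665F females (-0.22) gave 0.60, 0.64 and -0.47 to 0.051 in that order. Y665H against WT males (-0.36) gave 0.12 and 0.030 with those denominators, and Y665H against Y665F males (-0.35) gave 0.77 and 0.72, and 0.17 with Cd4 alone. Leaving out single libraries gave -0.28 to 0.20 in Y665F against WT males (-0.0080).

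Of the single-gene values under the alternatives, 795 kept direction and side of the threshold, 59 lost a call, 34 gained one and 28 changed sign. All that changed sign were uncalled. In Y665H against WT females, Gata3 was 0.22 with the muscle covariate, and with single libraries left out Gata3 ranged from -1.24 to 1.13, Foxp3 from -0.33 to 0.0056 and Icos from -0.24 to 0.0042. Ikzf2 in Y665H against Y665F females was 0.055 with the epithelium covariate. In Y665F against WT males, Gata3 was 2.24 and 1.10, and Ikzf2 0.085 and 0.058, with the epididymis and epithelium covariates, and Gata3 ranged from -2.20 to 0.22 with single libraries left out. In Y665H against WT males, Foxp3 was 0.018 with no filter, 0.0067 with all 24 libraries and 0.038 with the replicate block, Il1rl1 was -0.19 and -0.014 with the epididymis and epithelium covariates, and Tnfrsf4 was 0.084 with the first. Single libraries left out gave there -0.20 to 0.16 for Foxp3, -0.57 to 0.063 for Tnfrsf4 and -0.58 to 0.0058 for Klrg1. Gata3 in WT males against WT females was -0.48 and -0.66 with those covariates.

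Replicate numbers are shared between groups, but deviations of same-numbered libraries correlated from -0.46 to 0.77 and no comparison had every pair over 0.1, so the number was not taken as pairing. With the replicate block, edgeR no longer called Klrg1 in Y665F against WT females (adjusted p 0.0596), Icos in Y665H against Y665F females (0.0502), Il1rl1 and Klrg1 in Y665H against Y665F males (0.109 and 0.122), or Ikzf2 and Tnfrsf18 between the WT sexes (0.0681 and 0.122).

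The epithelium covariate, the ratio without Cd247 and the fit without both Y665F female 3 and Y665H female 4 were chosen after seeing the data; the last kept all 5 calls between the mutant females. Depth limits Areg in all groups, Ctla4 outside Y665F and Klrg1 in Y665H females, where group medians were under 10 counts.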
